A study of Mus musculus with 8 samples.

Results

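The Fc gamma receptors are the cell-surface receptors through which macrophages and related cells bind the constant part of immunoglobulin G. Transcript levels of 5 genes were followed: the receptors Fcgr1, Fcgr3, Fcgr4 and Fcgr2b, and Fcer1g, which encodes the common gamma chain. They were chosen by symbol, as the transcript clusters annotated to these names, out of 19494 genes with a symbol on the array. Each of the 5 had 1 cluster, and all 5 were among the 10862 genes that counted as measured, with a highest log2 signal over the 8 arrays of at least 4.86, the median of the whole table.

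In the mouse, Fcgr1, Fcgr3 and Fcgr4 encode activating receptors. They need the common gamma chain both to reach the cell surface and to signal, since the gamma chain carries the ITAM, a tyrosine motif that recruits the kinase Syk. Fcgr2b encodes the inhibitory receptor, which carries its own ITIM motif and recruits the phosphatase SHIP1, the product of Inpp5d, to the same complexes. In osteoclast precursors the gamma chain has a second known role: with the adaptor DAP12, the product of Tyrobp, it gives the costimulatory ITAM signal that acts beside RANK.

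The cells were C57BL6/J mouse bone marrow cells in 4 cultures. The PSS1-LMS and PSS1-WT cultures received 50 ng/ml MCSF and 100 ng/ml RANKL and, a day later, a retrovirus for mutant or wild-type PSS1, the phosphatidylserine synthase encoded by Ptdss1. The MCSF&RANKL culture had both factors and the MCSF culture MCSF alone. For these 2 the labels do not say whether an empty vector was given, and for none do they say how many animals were pooled. MCSF drives marrow precursors towards macrophages, and RANKL turns such precursors into osteoclasts. Each culture was sampled on days 6 and 3, with 1 array per day and no repeat, and precision is limited by having only these 8 arrays.

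The promoter sequences of the 5 genes are shown because 4 of the 5 transcripts fell with RANKL, the exception being Fcgr4, which was within background throughout. The 250 bases before the start site were taken from RefSeq (GRCm38.p6), at chr3:96293970-96294219 for Fcgr1 (minus strand), chr1:171059404-171059653 for Fcgr3 (minus), chr1:171018676-171018925 for Fcgr4 (plus), chr1:170976072-170976321 for Fcgr2b (minus) and chr1:171234350-171234599 for Fcer1g (minus). Capitals mark 2 motifs searched on both strands: GAGGAA, a core bound by the myeloid factor PU.1 that reads TTCCTC on the other strand, and TTCNNNGAA, the palindromic form bound by STAT factors. Fcgr3 has 2 start sites in the RefSeq table, of which the first listed is shown.
Fcgr1: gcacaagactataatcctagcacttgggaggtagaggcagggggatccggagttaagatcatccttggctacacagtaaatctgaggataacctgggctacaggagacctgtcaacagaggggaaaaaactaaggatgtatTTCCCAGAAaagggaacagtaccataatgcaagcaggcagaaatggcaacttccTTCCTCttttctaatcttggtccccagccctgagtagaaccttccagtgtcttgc
Fcgr3: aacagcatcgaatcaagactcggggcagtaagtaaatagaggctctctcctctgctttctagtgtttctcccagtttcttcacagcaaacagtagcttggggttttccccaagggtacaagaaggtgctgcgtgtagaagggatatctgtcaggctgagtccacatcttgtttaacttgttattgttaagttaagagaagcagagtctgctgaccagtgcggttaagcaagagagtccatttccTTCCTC
Fcgr4: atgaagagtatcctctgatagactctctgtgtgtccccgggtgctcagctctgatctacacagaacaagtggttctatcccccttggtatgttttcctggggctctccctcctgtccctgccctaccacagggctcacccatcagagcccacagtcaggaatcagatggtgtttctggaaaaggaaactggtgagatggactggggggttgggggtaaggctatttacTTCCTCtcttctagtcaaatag
Fcgr2b: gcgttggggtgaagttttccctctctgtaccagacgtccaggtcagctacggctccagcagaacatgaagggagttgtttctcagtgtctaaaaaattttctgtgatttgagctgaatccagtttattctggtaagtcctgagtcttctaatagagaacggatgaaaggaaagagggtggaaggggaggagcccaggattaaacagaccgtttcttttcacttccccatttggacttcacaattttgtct
Fcer1g: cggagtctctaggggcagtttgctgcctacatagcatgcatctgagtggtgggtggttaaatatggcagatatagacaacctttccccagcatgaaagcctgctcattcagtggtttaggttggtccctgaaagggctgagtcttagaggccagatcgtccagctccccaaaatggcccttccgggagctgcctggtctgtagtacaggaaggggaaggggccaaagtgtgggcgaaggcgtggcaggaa

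GAGGAA matched once in each of the 3 activating receptors, beginning 55 bases before the start site in Fcgr1, 22 in Fcgr4 and 6 in Fcgr3, and had no match in these windows of Fcgr2b and Fcer1g. TTCNNNGAA matched once, in Fcgr1, 109 bases before the start. The matches do not overlap. Of 32544 mouse promoter windows of the same length, 23.4% hold GAGGAA and 7.04% hold TTCNNNGAA. Of the AP-1 motif TGANTCA, held by 6.73% of windows, none of the 5 had a match. The E-box form CANGTG, held by 39.5%, matched once in Fcgr1 and once in Fcgr4. These matches describe the letters of the windows and are not measured binding sites.

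The transgene showed in Ptdss1, whose log2 signal was 17.50 to 18.91 on the 4 PSS1 arrays and 9.56 to 10.36 on the others. The defining genes of the 2 cell types moved with RANKL, in a limma fit that called 14.1% of all genes higher and 12.4% lower. All 10 osteoclast markers rose, and all 10 exceeded background on the 6 arrays with RANKL. Mmp9, Calcr, Ocstamp and Oscar counted as measured through those arrays alone, so nothing is read from their p-values. The log2 summed signal of the 10 was 21.57 to 21.75 with RANKL, against 12.84 and 8.89 on the MCSF arrays of days 6 and 3. Of 9 macrophage markers 8 fell, the other being Csf1r. Among the 8, Cx3cr1 and Cd163 counted as measured through the MCSF arrays alone, so that they had to be lower with RANKL to be tested. Nothing is read from the calls of these 2. Cd163 exceeded background on no array and Cx3cr1 on 1. The log2 summed signal of the 9 markers was 16.46 to 16.82 with RANKL, against 19.64 and 18.34 in MCSF. Of 9 neutrophil markers 2 fell with RANKL, Csf3r and Mmp8, a count to be read beside those shares. The RANKL differences of the other neutrophil markers lay between -0.20 and 0.90, and none passed. The log2 summed signal of the 9 was 8.29 to 9.33 with RANKL and 11.79 in MCSF on day 6. On day 3 it was 14.20 to 14.72 with RANKL and 14.86 in MCSF. The MCSF sum of day 6 was set by Mmp8 (11.20) and Csf3r (9.96), the only 2 of the list above background on that array. Of 4 measured dendritic cell markers 3 rose, among them Itgax and H2-Eb1, which exceeded background on only 1 and 3 arrays. Of 4 measured monocyte markers 2 fell, and of 4 megakaryocyte markers 1 fell, Pf4 (288-fold lower). None of 4 B cell, 6 T and NK cell or 6 mast cell and basophil markers exceeded background on any array. The part of cell makeup in the results below was not tested, and in these bulk samples fewer cells of a type and less RNA per cell cannot be told apart.

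**Figure D1:**
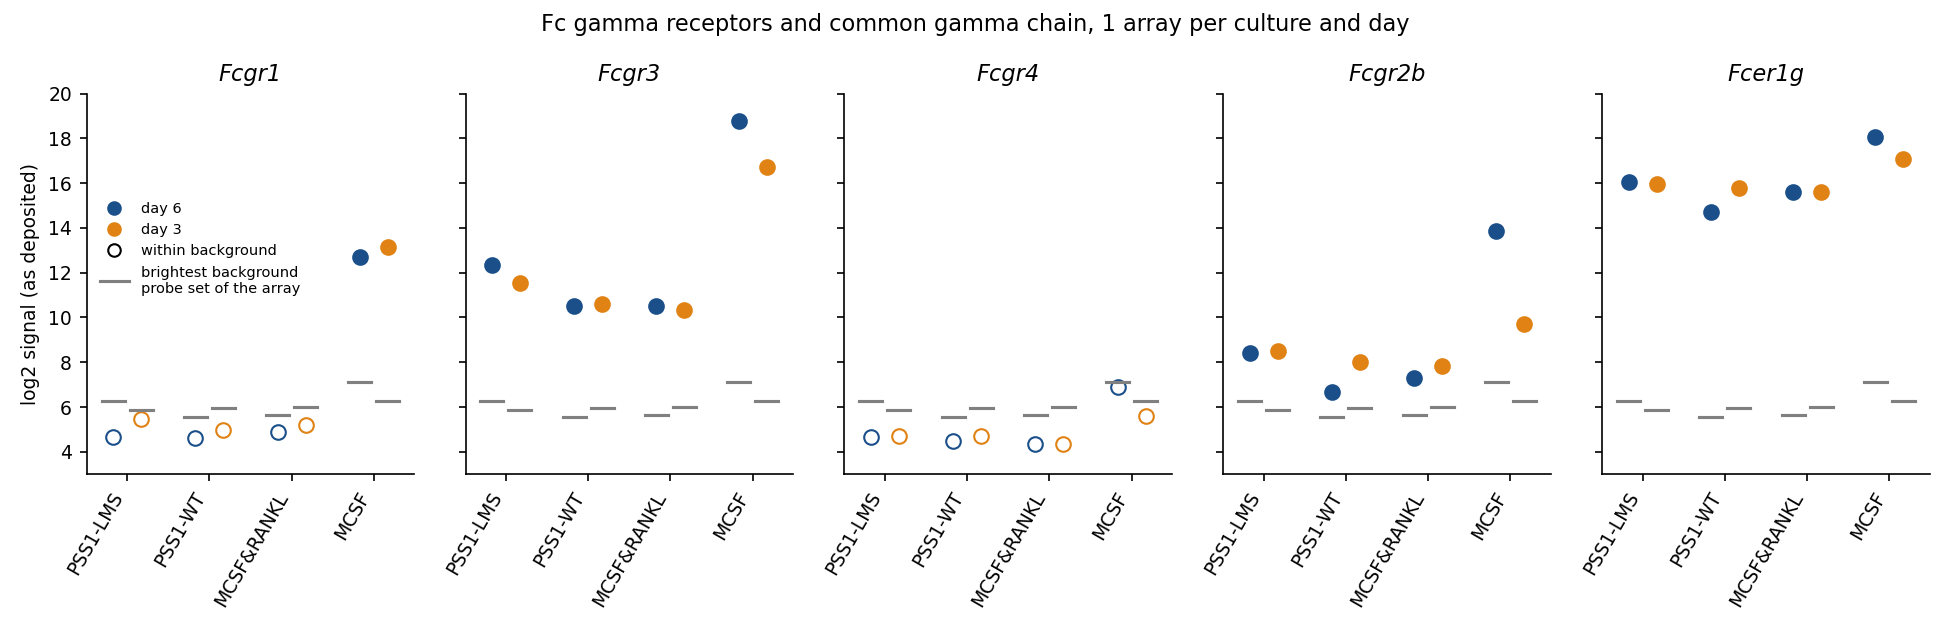
Log2 signal of the 5 genes (y axis) in the 4 cultures (x axis), 1 point per array, with day 6 left of day 3. Grey ticks mark the brightest of 23 background probe sets on the same array, and open points lie at or under it. Fcgr1 exceeds background in MCSF alone, Fcgr4 on no array, and Fcgr3, Fcgr2b and Fcer1g on all 8 arrays.

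The first comparison, RANKL with MCSF against MCSF alone, asked how the Fc gamma receptors differ between osteoclast and macrophage cultures. The 4 members that exceeded background on any array, Fcgr1, Fcgr3, Fcgr2b and Fcer1g, fell with RANKL by limma, where of all 10862 genes 12.4% were called lower and 14.1% higher, 26.5% in all. The high-affinity receptor Fcgr1 and the low-affinity receptor Fcgr3 had the 2 largest differences, and the inhibitory Fcgr2b an intermediate one. The common gamma chain kept a signal among the brightest of the array, which does not rank transcript amounts between probe sets. Over all genes the median difference was 0.03. Errors are standard errors of a fit with culture and day as additive terms and Benjamini-Hochberg adjustment over all measured genes. They cover how far culture differences varied between the 2 days, not separate animals or cultures.

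Fcgr1, the only mouse Fc gamma receptor that binds monomeric immunoglobulin G with high affinity, had log2 signals of 4.88 and 5.18 in the MCSF&RANKL culture on days 6 and 3, against 12.70 and 13.14 in MCSF. In the PSS1-WT culture it was 4.63 and 4.98, and in the PSS1-LMS culture 4.65 and 5.47. All 6 arrays with RANKL lay within background and the 2 MCSF arrays far above it, with no overlap. It fell by 7.89 ± 0.29 on the log2 scale (limma, adjusted p = 3.95e-06), which is at least 136-fold lower when the background of the RANKL arrays is taken as the low side.

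Fcgr3, the low-affinity activating receptor, had 10.51 and 10.34 in MCSF&RANKL on days 6 and 3, against 18.79 and 16.72 in MCSF. The PSS1-WT values were 10.53 and 10.60, and the PSS1-LMS values 12.32 and 11.55. It stayed above background on every array, so that RANKL left a measurable signal, at the percentiles 86.9 and 86.1 of all transcript clusters, and in MCSF at 99.8 and 99.2. It was 161-fold lower with RANKL (log2 difference -7.33 ± 0.50, limma adjusted p = 4.75e-05). Against the same MCSF arrays it was 146-fold lower in PSS1-WT and 56.5-fold lower in PSS1-LMS.

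Fcgr4, which binds the IgG2a and IgG2b subclasses in mice, had 4.36 and 4.34 in MCSF&RANKL on days 6 and 3, against 6.90 and 5.58 in MCSF. The other arrays with RANKL lay between 4.47 and 4.71. No value exceeded the brightest of its array's background probe sets, so no fold is given. The fitted difference was -1.89 ± 0.42 (limma adjusted p = 0.0132). Fcgr4 met the filter of 4.86 through the MCSF arrays alone, however, so that it had to be lower with RANKL to be tested at all, and nothing is read from this p. The MCSF array of day 6 exceeded 22 of 23 background probe sets and that of day 3 exceeded 19. With values raised to the background of their array, the difference was -0.87 and did not pass (adjusted p = 0.1).

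Fcgr2b, the inhibitory receptor, had 7.31 and 7.84 in MCSF&RANKL on days 6 and 3, against 13.87 and 9.71 in MCSF. In PSS1-WT it was 6.67 and 8.02, and in PSS1-LMS 8.42 and 8.48. All arrays with RANKL were below both MCSF arrays, but the 2 MCSF arrays differed from each other by more than the day 3 arrays differed between cultures. The mean difference was -4.22 ± 1.12 (18.6-fold lower, limma adjusted p = 0.0274). It was 94.6-fold lower on day 6 and 3.65-fold lower on day 3, each from 1 array per side and untested. Fcgr2b and Fcgr3 encode closely similar extracellular parts, and the probe sequences were not used here, so a share of signal common to both clusters cannot be told apart.

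Fcer1g, the common gamma chain, had 15.60 on both days in MCSF&RANKL, against 18.06 and 17.07 in MCSF on days 6 and 3. In PSS1-WT it was 14.70 and 15.80, and in PSS1-LMS 16.05 and 15.95. It lay between the percentiles 97.8 and 98.9 of all clusters on the 6 arrays with RANKL. It was 3.89-fold lower with RANKL than in MCSF (-1.96 ± 0.47, limma adjusted p = 0.0176). Without the MCSF&RANKL array of day 6 the calls of Fcer1g and Fcgr2b were lost, at differences of -1.96 and -3.49. They were also lost without that of day 3, at -1.96 and -4.94. Each of these fits leaves 1 MCSF&RANKL array. The Fcgr4 call, from which nothing is read, was lost in both as well. Without the MCSF array of day 3 the Fcgr2b difference was -6.62, and without that of day 6 it was -1.81. Those of Fcgr4 were -2.60 and -1.18.

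**Figure D2:**
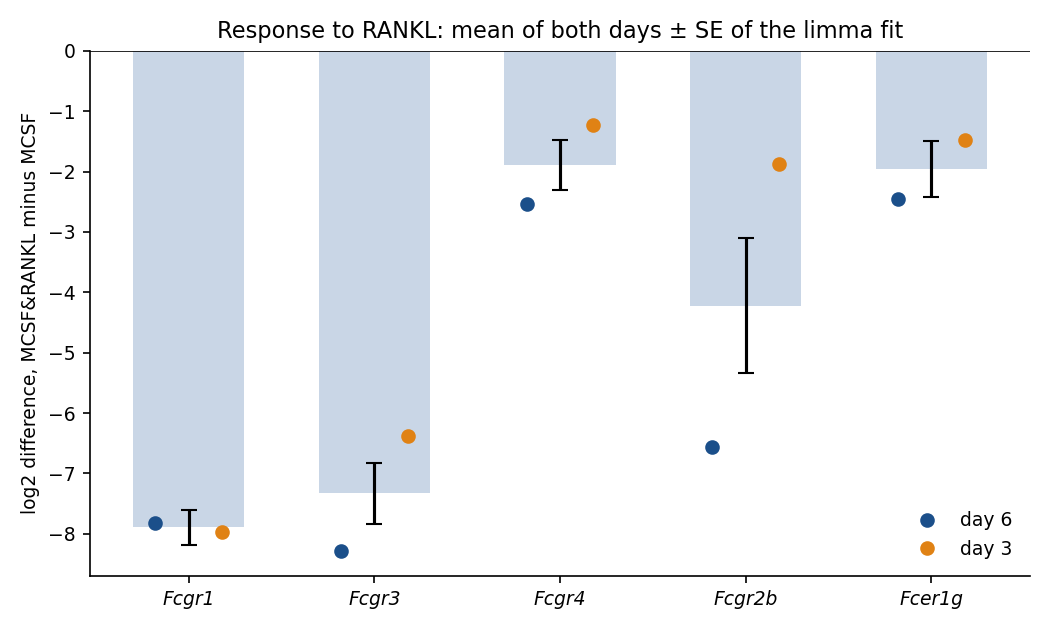
Log2 difference of MCSF&RANKL minus MCSF (y axis) for the 5 genes (x axis). Bars and error bars are the mean of both days and the SE of the limma fit, and points are the single days, day 6 left of day 3. Fcgr1 differs alike on both days, while Fcgr2b is -6.56 on day 6 and -1.87 on day 3.

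The activating receptors were then set against the inhibitory one by their changes, because signals of different probe sets do not rank transcript amounts against each other. On day 3, Fcgr3 differed from MCSF by -6.38 in MCSF&RANKL where Fcgr2b differed by -1.87, a gap of -4.51. The gap was -4.43 in PSS1-WT and -3.94 in PSS1-LMS. On day 6 it was -1.72, -1.06 and -1.02 in the same cultures. Fcgr3 thus lay further below MCSF than Fcgr2b in all 3 cultures on both days, and the gap was narrower on day 6. These gaps share the MCSF array of their day.

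Fcgr1 lay within background on every array with RANKL, so its gaps to Fcgr2b were taken with those signals raised to background. They were -5.27, -5.49 and -6.05 on day 3 in MCSF&RANKL, PSS1-WT and PSS1-LMS, and -0.48, 0.04 and -0.99 on day 6. On day 3 Fcgr1 thus lay further below MCSF than Fcgr2b in all 3 cultures, while on day 6 its order against Fcgr2b in PSS1-WT was not measurable. Fcgr4 has no gap, being within background on both sides. The gamma chain ran the other way: its change exceeded that of Fcgr2b by 0.40, 0.42 and 0.11 on day 3 and by 4.11, 3.84 and 3.44 on day 6. Fitted over both days after subtracting Fcgr2b from every gene, the MCSF&RANKL minus MCSF difference was -3.68 ± 1.77 for Fcgr1 (limma adjusted p = 0.0508; -2.87 and 0.0888 on values raised to background) and -3.11 ± 1.77 for Fcgr3 (0.0917). It was 2.33 for Fcgr4 (0.203) and 2.25 for Fcer1g (0.217), so none of the 4 passed. That fit called 74.1% of genes higher and 0.11% lower, 74.2% in all. The subtraction puts the spread of Fcgr2b into every gene, which gave all genes 1 common error, so its p-values are no separate evidence on each gene.

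**Figure D3:**
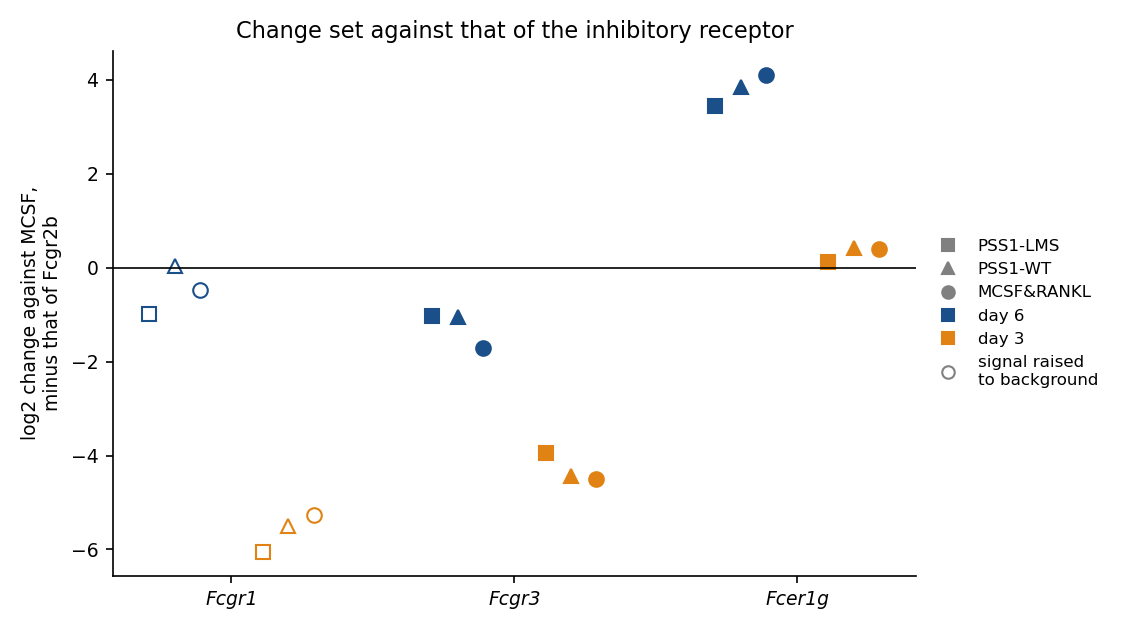
Log2 change against the MCSF array of the same day, minus that of Fcgr2b (y axis), for Fcgr1, Fcgr3 and Fcer1g (x axis), with symbols for the culture, colours for the day and open symbols where the signal with RANKL was raised to background. Fcgr3 lies below 0 in every culture on both days and Fcer1g above, while Fcgr1 is below 0 except in PSS1-WT on day 6, at 0.04.

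The second comparison concerned time. Averaged over the 4 cultures, no member passed between day 6 and day 3 by limma: Fcgr3 had 0.73 ± 0.36 (adjusted p = 0.657), Fcgr2b 0.55 ± 0.79 (0.893), Fcgr4 0.26 ± 0.30 (0.865), Fcer1g 0.00 ± 0.33 (0.999) and Fcgr1 -0.48 ± 0.21 (0.628). Over all genes 0.101% were called higher and 0.184% lower. The averages joined cultures that moved apart. In MCSF alone, day 6 minus day 3 was 4.16 for Fcgr2b, 2.07 for Fcgr3, 1.33 for Fcgr4 and 0.99 for Fcer1g, and -0.44 for Fcgr1. In the 3 cultures with RANKL it lay between -1.35 and -0.06 for Fcgr2b, between -0.07 and 0.77 for Fcgr3, between -0.25 and 0.02 for Fcgr4 and between -1.10 and 0.11 for Fcer1g. For Fcgr1 it lay between -0.81 and -0.29, with all 6 values within background.

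The difference between these day changes was tested with a term for day in the cultures with RANKL, which rests on 1 MCSF array per day. The MCSF arrays leave no residual in this fit, so the spread was estimated from the cultures with RANKL alone. The errors assume the same spread in MCSF. It was -4.81 ± 0.48 for Fcgr2b (limma adjusted p = 1.01e-05) and -1.78 ± 0.44 for Fcgr3 (0.00835), and both passed. The value for Fcgr4, -1.43 ± 0.40 (0.0186), was all within background and was lost on values raised to background (-0.96, adjusted p = 0.0715). Fcer1g (-1.32 ± 0.48, adjusted p = 0.0619) and Fcgr1 (-0.05 ± 0.41, 0.951) did not pass. Of all genes, 12.9% were called lower and 9.57% higher in this test. The inhibitory receptor was thus 17.9-fold higher on day 6 than on day 3 in MCSF alone, against 4.19-fold for Fcgr3, and each of these folds is 1 array against 1. The summed log2 signal of the macrophage markers in MCSF was 19.64 on day 6 and 18.34 on day 3, but single markers differed in direction. In MCSF on days 6 and 3, Msr1 (15.45 and 16.59) and Cx3cr1 (5.62 and 9.57) were lower on day 6. Cd14 was nearly level (12.13 and 11.98), and the other markers of the list were higher on day 6. The part of these markers in the receptor changes was not tested.

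**Figure D4:**
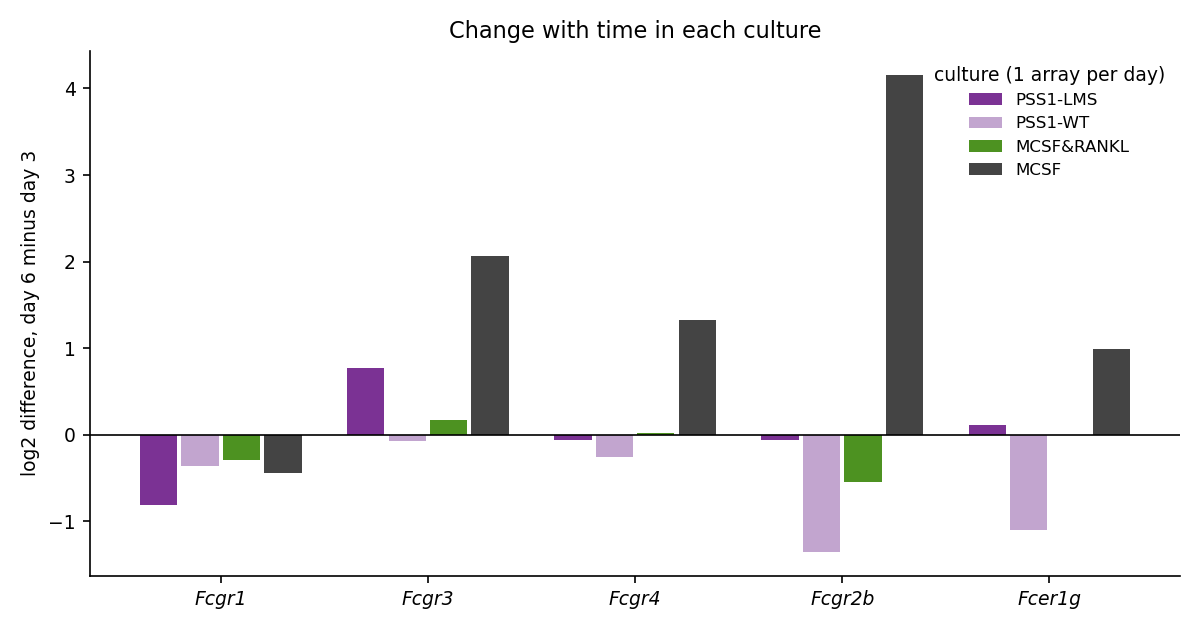
Log2 difference of day 6 minus day 3 (y axis) for each gene (x axis) in each culture, 1 bar for each pair of arrays. The MCSF bar is 4.16 for Fcgr2b and 2.07 for Fcgr3, while for both genes the bars of the cultures with RANKL lie between -1.35 and 0.77.

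The third comparison asked whether PSS1 changed the receptors in cells with RANKL. The PSS1-LMS and PSS1-WT comparisons share the 2 MCSF&RANKL arrays. With mutant PSS1, Fcgr3 was higher: 12.32 and 11.55 in PSS1-LMS on days 6 and 3, against 10.51 and 10.34 in MCSF&RANKL. The difference was 2.85-fold (1.51 ± 0.27, limma adjusted p = 0.0332), where 0.157% of genes were called higher and 0.0184% lower. The 17 genes called higher also held Clec4d (1.46 ± 0.26, adjusted p = 0.0332), a C-type lectin receptor that works with the gamma chain, and Mmp8, a neutrophil collagenase on the neutrophil marker list (1.46 ± 0.27, 0.0367). Both were among the fixed lists. None of 9 macrophage markers passed, but some had higher values beside Fcgr3: PSS1-LMS minus MCSF&RANKL was 1.03 ± 0.27 for Mrc1 (limma adjusted p = 0.241), 0.96 ± 0.25 for Msr1 (0.236), 0.84 ± 0.26 for Mertk (0.411) and 0.62 ± 0.27 for Adgre1 (0.717). It lay between -0.33 and -0.06 for the other 5. The log2 summed signal, set mostly by Csf1r, was 16.57 and 16.64 in PSS1-LMS, against 16.46 and 16.78 in MCSF&RANKL on days 6 and 3. The part of these markers in the Fcgr3 difference was not tested.

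The Fcgr3 call with mutant PSS1 was not stable. Its adjusted p was 0.491 without the PSS1-LMS array of day 6, where the difference was 1.15, and 0.0588 without the MCSF&RANKL array of day 6. It was 0.0681 after quantile normalization, 0.0714 with no filter on dim genes and 1 with all 8 arrays in the fit. The difference was positive under all 13 alternatives. Of the other members, Fcgr2b was 0.87 ± 0.29 (limma adjusted p = 0.478), Fcer1g 0.40 ± 0.30 (0.949), Fcgr4 0.32 ± 0.25 (0.949) and Fcgr1 0.03 ± 0.25 (0.999). None of these passed, though Fcgr2b and Fcer1g had higher values in PSS1-LMS than in MCSF&RANKL on both days.

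With wild-type PSS1 no member passed. Fcgr3 was 0.14 ± 0.27 (limma adjusted p = 0.952), Fcgr2b -0.23 ± 0.29 (0.907), Fcer1g -0.35 ± 0.30 (0.834), Fcgr1 -0.22 ± 0.25 (0.89) and Fcgr4 0.24 ± 0.25 (0.877), and 0.00921% of genes were called higher and 0% lower. The gamma chain and Fcgr2b had their lowest values of the 8 arrays in PSS1-WT on day 6, at 14.70 and 6.67, with 15.80 and 8.02 on day 3 in the same culture.

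Mutant and wild-type PSS1 were compared directly. PSS1-LMS minus PSS1-WT was 1.37 ± 0.27 for Fcgr3 (limma adjusted p = 0.174), 1.10 ± 0.29 for Fcgr2b (0.387), 0.75 ± 0.30 for Fcer1g (0.604), 0.25 ± 0.25 for Fcgr1 (0.877) and 0.09 ± 0.25 for Fcgr4 (0.966). No gene passed in this comparison by limma (0%), and 773 of 10862 had an unadjusted p under 0.05. Fcgr3 differed by 1.79 on day 6 and 0.96 on day 3, Fcgr2b by 1.75 and 0.46, and Fcer1g by 1.36 and 0.15. These 3 were higher with the mutant on both days, with the larger difference on day 6.

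The genes around the receptors in their pathway were counted from lists chosen by function. Of 14 other Fc receptor and Fc receptor-like genes, 5 were measured, of which 2 fell with RANKL and none rose, beside 12.4% and 14.1% of all genes. The median was -2.19, against 0.03 over all genes. Both the count and the median include Fcrls, which the filter admitted through MCSF, so nothing is read from them for the list. Fcrl1 (0.91) and Fcer2a (0.25, within background on all arrays) had positive differences that did not pass. Fcrls, an Fc receptor-like molecule known from microglia, fell (-9.06 ± 0.62, at least 201-fold lower, limma adjusted p = 4.66e-05). It counted as measured through the MCSF arrays alone, so that it had to be lower with RANKL to be tested. Nothing is therefore read from its p. Its fold rests on MCSF signals of 14.69 and 12.28 on days 6 and 3, which exceeded background. Trim21, the cytosolic antibody receptor, also fell (-2.19 ± 0.43, at least 2.63-fold lower, limma adjusted p = 0.00736). Fcgrt, the neonatal Fc receptor that recycles immunoglobulin G, had 6.42 and 7.01 in MCSF&RANKL on days 6 and 3, against 12.36 and 7.11 in MCSF. Its RANKL difference did not pass (-3.02 ± 1.38, adjusted p = 0.155), while the difference between its day changes did (-6.11, adjusted p = 3.02e-07), so that, as for Fcgr2b, the day 6 MCSF array stood apart.

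Of 11 listed receptors that pair with the common gamma chain besides the Fc gamma receptors, 7 were on the array by name and 4 were measured. Oscar, the collagen receptor of osteoclasts, rose by 11.93 ± 0.34 and was at least 245-fold higher with RANKL (limma adjusted p = 1.01e-06). It counted as measured through the arrays with RANKL alone, so nothing is read from its p. The C-type lectins Clec4d (-4.97 ± 0.30, adjusted p = 2.96e-05) and Clec4e (-3.63 ± 0.64, 0.00475) fell 31.4-fold and 12.4-fold, and Clec4n did not pass (-1.82, adjusted p = 0.137). In the cultures with RANKL, Fcgr1, Fcgr3 and 2 of these lectins were thus lower than in MCSF and Oscar was higher. The gamma chain, though also lower than in MCSF, kept a signal among the brightest there. Tyrobp, the other ITAM adaptor, did not pass (0.17 ± 0.45, adjusted p = 0.827).

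Of 24 measured kinases and adaptors that act after an ITAM, 4 rose and 4 fell with RANKL, with a median of 0.09. Over all genes 26.5% passed in either direction, which is near the share in this list, and in the actin and inhibitory lists below the counts are to be read beside the same share. The rises were those of the kinase Src (at least 25.5-fold), the phosphoinositide 3-kinase subunit Pik3cb (3.86 ± 0.47), and the adaptors Lat (at least 3.96-fold) and Lcp2 (2.05 ± 0.29). Of these, Src counted as measured through the arrays with RANKL alone, so nothing is read from its p. The falls were those of the kinase Fyn (at least 4.53-fold lower), the adaptor Blnk (-2.34 ± 0.31), the ubiquitin ligase Cbl (-2.03 ± 0.48) and the exchange factor Vav1 (-1.33 ± 0.32). Syk, the kinase that binds the ITAM, had a difference of 0.91 ± 0.44 and did not pass (limma adjusted p = 0.177).

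In the inhibitory branch 12 genes were measured, of which 2 rose and 4 fell (median -0.67). The adaptor Dok2 (-3.62 ± 0.37), the receptors Cd300a (-2.64 ± 0.47) and Lilrb4a (-2.16 ± 0.49) and Inpp5d, the phosphatase that Fcgr2b recruits (-1.24 ± 0.32, limma adjusted p = 0.0234), fell. The adaptors Dok3 (4.61-fold, limma adjusted p = 0.0446) and Dok1 (2.83-fold, 0.0401) rose. Of 19 measured genes of the actin machinery of phagocytosis, 2 rose and 3 fell (median -0.19), a share close to that over all genes. Myo10, a myosin of pseudopods (at least 38-fold), and the GTPase Rac2 (3.20 ± 0.52) rose. The Rac activators Dock2 (-4.45 ± 0.33) and Elmo1 (-1.44 ± 0.36) and the membrane protein Marcks (-4.39 ± 0.76) fell.

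**Figure D5:**
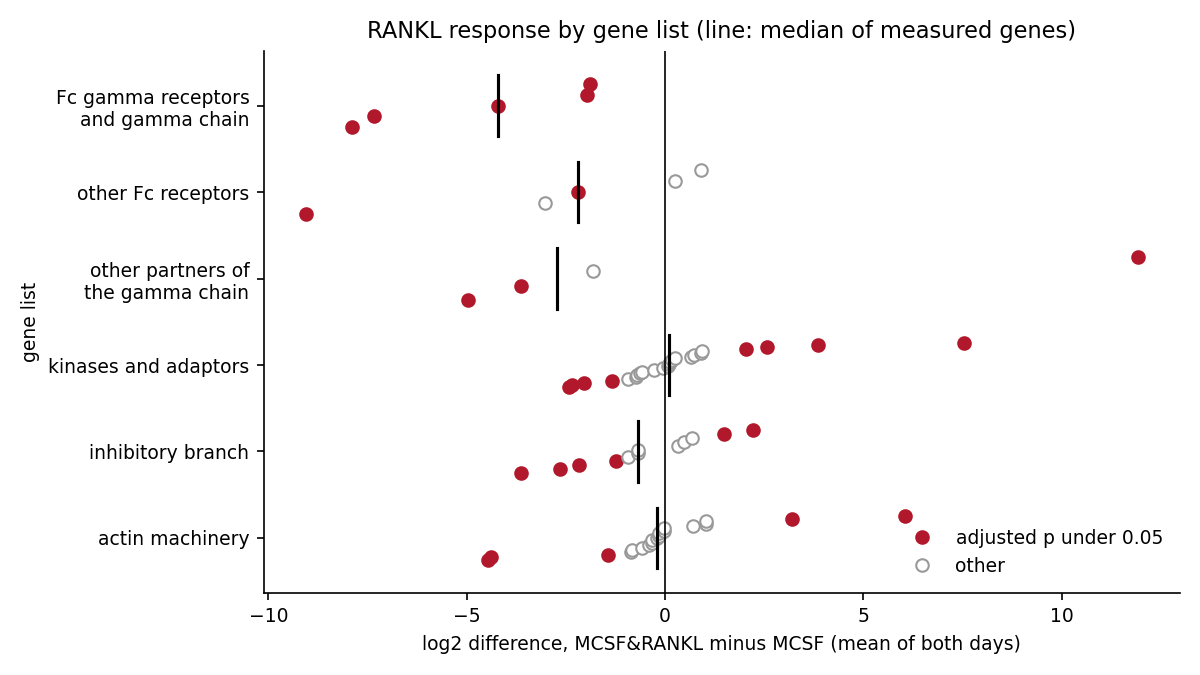
Log2 difference of MCSF&RANKL minus MCSF, averaged over both days (x axis), for the measured genes of each list (rows), filled where the limma adjusted p was under 0.05, with a line at the list's median. The 5 Fc genes lie below 0, from -7.89 for Fcgr1 to -1.89 for Fcgr4, which is within background on all arrays, and the kinase and actin lists are centred at 0.09 and -0.19.

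By gene order in RefSeq, Fcgr2b, Fcgr4 and Fcgr3 are direct neighbours, and Fcer1g follows after 7 other protein-coding genes. Of these 7, taken by position alone, 4 were measured. Sdhc, a subunit of respiratory complex II, rose with RANKL (1.98 ± 0.42, limma adjusted p = 0.0113). Pcp4l1 had -1.38 ± 0.30 (0.0117) but lay within background on all 8 arrays, so no fall is read from its p. Cfap126 (-1.39, 0.125) and Tomm40l (0.52, 0.318) did not pass, and Tomm40l also lay within background on all 8 arrays. These calls stand beside 14.1% of all genes called higher and 12.4% lower. Between Fcgr3 and Fcer1g, Sdhc thus had a positive difference, as had Tomm40l, while those of Cfap126 and Pcp4l1 were negative. Any part of position in the receptor differences was not tested.

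The members were alike in profile to different degrees. Over the 8 arrays, Pearson's r was 0.973 between Fcgr4 and Fcgr2b, 0.956 between Fcgr3 and Fcgr4, and 0.819 between Fcgr1 and Fcgr2b, the lowest of the 10 pairs. The 2 MCSF arrays set most of these values, and they are given as descriptions. Fcgr4 lay within background on all 8 arrays, and Fcgr1 exceeded it on 2. Values of r for Fcgr4 thus compare signal within background, and those for Fcgr1 do so in part. Among 7795 other measured genes with a range of at least 1 log2 unit, the 3 most like Fcgr3 were Tlr7, an endosomal RNA receptor (r = 0.998), P2ry6, a receptor for uridine nucleotides (0.998), and Ncf1, a subunit of the phagocyte NADPH oxidase (0.998). For Fcgr1 they were Fads2, Snx2 and Arhgap19 (0.996 each), and for Fcgr4 Nxpe5 (0.995), Parp14 (0.994) and Arhgap45 (0.994). For Fcgr2b they were Sec14l1 (0.994), Ninj1 (0.994) and Fndc3a (0.993), and for Fcer1g Pikfyve (0.980), Rgs2 (0.979) and Vamp7 (0.978).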

How the data were processed

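The authors deposited 1 table of log2 signals for 28846 features on 8 Affymetrix arrays, made from 500 ng of total RNA each per the labels' protocols. Their probe summary and normalization are not given in the sources used here. Values reach 19.93, which put them on a log2 scale, and they were used as deposited. Symbols came from the platform annotation, which gave 1 symbol to 19527 of 22142 transcript clusters; for the 33 genes with several, the cluster with the highest mean was used. A signal counted as background when at or under the brightest of 23 background probe sets of its array, which was 5.54 to 7.13, and low sides were raised to it for "at least" folds.

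Tests used limma 3.58.1 in R 4.3.3 on the 10862 measured genes, with culture and day as additive terms and a threshold of 0.05. All 8 arrays entered the RANKL and day fits (3 residual and 4.71 pooled degrees of freedom), and the 6 arrays with RANKL the PSS1 fits (2 and 13.6). The test of day by RANKL had 2 and 13.6. The code was tested on simulated data. Because every group is 1 array, p-values measure spread between days and not between animals or cultures. The members and lists were chosen with earlier results of these data known. The named genes were the 5 members, the 4 largest RANKL differences past the threshold in each list and, per member, the 3 genes most alike in profile. Other list genes named (Fcgrt, Clec4n, Tyrobp, Syk, Inpp5d, the cell type markers, the fifth and sixth calls of a list, and list genes called with PSS1-LMS) and the neighbours in gene order were chosen after their values were seen. Normalization, filters, background, pooling and leaving out each array were varied.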

Additional observations from a re-analysis of the deposited data

Results flagged for a closer look

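The difference between the day changes with and without RANKL marked 3 members for a closer look. It was -4.81 for Fcgr2b, -1.78 for Fcgr3 and -1.43 for Fcgr4 (limma, adjusted p = 1.01e-05, 0.00835 and 0.0186), meaning that day 6 minus day 3 was lower in the 3 cultures with RANKL than in MCSF. The MCSF side is 1 array per day and leaves no residual, so the spread was estimated from the cultures with RANKL alone. Fcgr4 lay within background on all 8 arrays and did not pass on values raised to background (-0.96, adjusted p = 0.0715).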

How the results depend on the processing

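Fcgr1 and Fcgr3 kept their lower signal with RANKL under all 16 alternatives, with adjusted p up to 0.00065 and 0.003. Leaving out each array in turn gave -8.02 to -7.77 for Fcgr1, -8.22 to -6.44 for Fcgr3, -6.62 to -1.81 for Fcgr2b, -2.60 to -1.18 for Fcgr4 and -2.62 to -1.30 for Fcer1g. Raised to background, the Fcgr4 difference was -0.87 with RANKL and -0.08 with PSS1-WT. For PSS1-WT, leaving out arrays gave -0.13 to 0.41 for Fcgr3, -0.75 to 0.30 for Fcgr2b and -0.93 to 0.22 for Fcer1g. For PSS1-LMS it gave -0.22 to 0.27 for Fcgr1, and for PSS1-LMS minus PSS1-WT -0.03 to 0.20 for Fcgr4. PSS1-LMS minus PSS1-WT for Fcgr3 passed under 7 of 13 alternatives (adjusted p 0.00117 to 1) and for Fcgr2b under 3 (0.0158 to 1). For the day effect the ranges were -0.65 to 1.19 for Fcgr2b, -0.10 to 0.43 for Fcgr4 and -0.33 to 0.37 for Fcer1g. With the 6 arrays with RANKL alone, Fcgr2b was -0.65 and Fcgr4 -0.10, and after quantile normalization Fcer1g was 0.04. For day by RANKL, Fcgr1 was 0.32 on raised values and -0.14 to 0.12 without single arrays. Fcer1g passed under 7 of 12 alternatives, and Fcgr4 was not called on raised values (adjusted p = 0.0715).

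Counts of genes called moved more. Without single arrays they ran from 1198 to 4545 for RANKL (2874 with all), 3 to 69 for PSS1-WT (1), 10 to 85 for PSS1-LMS (19), 0 to 48 for PSS1-LMS minus PSS1-WT (0), 10 to 372 for day (31) and 55 to 10746 for the fit relative to Fcgr2b (8060). For PSS1-WT the count was 2 with the background filter, 8 on raised values and 2 with an eBayes trend. For PSS1-LMS it was 1 after quantile normalization, 2 with no filter, 37 with the background filter, 56 on raised values, 45 with a trend and 1 with all 8 arrays. For PSS1-LMS minus PSS1-WT these were 8 with the background filter, 31 on raised values and 7 with a trend. For day the count was 20 with the background filter and 372 with the arrays with RANKL alone. Relative to Fcgr2b it was 16495 with no filter, 5145 with the background filter and 1410 with a trend. The filters change how many genes are tested, and for the other settings the cause was not tested. Day was a term in every fit, so cultures were compared within days. No member has a second cluster, so that alternative was not run, and day by RANKL could not be fitted without either MCSF array.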
